A study of Mus musculus with 8 samples.

Results

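The genes of 10 components of the Notch signalling pathway were followed in mouse embryonic stem cells (ESC) and in the neural progenitor cells (NPC) derived from them, with and without an intact Wdr68 gene. They were the ligand genes Dll1, Dll3 and Jag1, the receptor genes Notch1 and Notch3, the receptor-modifying enzyme gene Lfng, and the genes Hes1, Hes5, Hey1 and Nrarp, which are known targets of the pathway. The genes were taken by symbol and made up 10 of 24306 gene symbols analysed. E14 is an established mouse ESC line. Each stage was sampled from wild-type cells and from a line labelled Wdr68 knockout, which gave 4 groups of 2 libraries of poly(A) RNA, and the tables list Wdr68 as Dcaf7. All stem cells were grown in serum with LIF and inhibitors of the Mek and GSK3 kinases, on feeder cells or on gelatin, and which of these applied to a library is not given in the sources used here. For NPC, embryoid bodies formed in hanging drops of 500 cells for 2 days, stayed in suspension for 2 days, and then received retinoic acid for 4 days. How the knockout was made, and whether it came from 1 clone, is also not given there.

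Notch receptors are cleaved after they bind a Delta or Jagged ligand on a neighbouring cell, and the freed intracellular domain enters the nucleus, where it joins the DNA-binding protein RBPJ and a Mastermind coactivator on target genes. In the developing neural tube the pathway is known for lateral inhibition. Cells that express proneural factors and Delta ligands go on to become neurons, and they activate Notch in their neighbours, where HES and HEY repressors hold back proneural genes and keep the cells as progenitors. Fringe enzymes such as LFNG add sugars to the receptors and change how they respond to Delta and Jagged ligands.

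The promoter sequences of 3 genes are printed because Hes5, Lfng and Nrarp were much lower in knockout NPC and because the first and second of them hold the RBPJ core motif GTGGGAA in the 250 bases before the start site. They are the RefSeq sequences on build GRCm38.p6, read 5′ to 3′ along the gene, at chr4:154960673-154960922 (plus strand) for Hes5, chr5:140607091-140607340 (plus strand) for Lfng and chr2:25180508-25180757 (plus strand) for Nrarp. Capitals mark GTGGGAA on either strand.
Hes5: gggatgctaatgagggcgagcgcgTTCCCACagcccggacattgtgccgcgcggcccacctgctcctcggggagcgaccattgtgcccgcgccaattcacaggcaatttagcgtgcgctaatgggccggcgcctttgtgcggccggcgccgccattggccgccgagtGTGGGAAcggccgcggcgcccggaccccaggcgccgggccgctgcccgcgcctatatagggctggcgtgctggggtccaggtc
Lfng: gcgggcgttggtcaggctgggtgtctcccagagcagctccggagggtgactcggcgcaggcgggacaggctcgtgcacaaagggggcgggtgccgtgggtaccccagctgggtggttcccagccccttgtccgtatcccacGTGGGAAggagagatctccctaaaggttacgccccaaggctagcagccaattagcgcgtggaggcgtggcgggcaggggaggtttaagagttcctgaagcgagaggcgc
Nrarp: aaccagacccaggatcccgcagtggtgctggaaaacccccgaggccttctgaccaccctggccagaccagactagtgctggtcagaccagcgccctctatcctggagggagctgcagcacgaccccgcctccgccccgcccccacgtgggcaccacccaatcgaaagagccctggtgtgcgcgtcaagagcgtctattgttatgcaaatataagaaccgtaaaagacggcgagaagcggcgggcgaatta
In Hes5 the motif lay on the opposite strand from base 226 to base 220 before the start and on the gene's own strand from base 83 to base 77. Lfng held it once, on its own strand, from base 109 to base 103. The RefSeq table gave 9 promoters for 8 of the 10 genes, and of these the Hes5 and Lfng promoters held GTGGGAA, against 5.42% of 32851 promoters of the same length. The variant core GTGAGAA, found in 3.83% of all promoters, was in none of the 9. The N-box CACNAG, a site class of HES repressors, was in the Notch1, Notch3, Nrarp and Lfng promoters and in 36.7% of all promoters. The E-box CAGCTG, a site class of proneural factors, was in Dll3, Jag1, Lfng and the second listed Dll1 promoter and in 13.0% of all promoters. Both strands were searched for each motif, and no GTGGGAA match overlapped another motif. A match describes letters in this window and shows no binding.

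The tables give levels as FPKM, which divides the sequenced fragments of a gene by its transcript length and by the size of the library, so levels can be compared between genes. The fragments assigned to genes, derived from the tabulated intervals, summed to 5996677 to 7942644 per library. Dcaf7 FPKM was 12.4 and 14.2 in the wild-type and 2.80 and 2.26 in the knockout ESC libraries, and 27.2 and 29.6 in wild-type NPC and 8.36 and 8.99 in knockout NPC, so both knockout groups lay below their controls and kept some of this RNA. The 8 pluripotency markers examined summed to FPKM of 3645 to 4219 in the ESC libraries and 7.43 to 14.9 in the NPC libraries. All 10 neural progenitor markers reached an FPKM of 1 in wild-type NPC, and so did all 10 markers of postmitotic neurons. Of the progenitor markers 6, and of the neuron markers 4, also reached it in both libraries of wild-type ESC. The sources used here do not say whether the 2 libraries of a group came from separate cultures, so the p-values speak to the spread of these duplicates, and that spread may be technical.

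The first comparison asked how the knockout changed the 10 genes in NPC. Dll1, Dll3, Notch1, Lfng, Hes5 and Nrarp fell, whereas Jag1, Notch3, Hes1 and Hey1 did not pass the test. Changes are differences of log2(FPKM + 1) with their standard errors, tested with limma over 13318 genes, and a gene was called at a Benjamini-Hochberg adjusted p under 0.05. At that threshold 6 of the 10 were lower and 0 were higher, against 12.7% of all tested genes lower and 14.7% higher. The same 6 genes were lower by at least 1 on this scale, against 5.45% of all tested genes. The median change was -1.75 over the 10 genes and 0.05 over all tested genes. Dll1, Dll3, Hes5 and Lfng entered the test through wild-type NPC alone, the one group where they reached an FPKM of 1, so these counts and medians partly follow from the filter on low values. In RNA from a mixture of cells, fewer cells of a type and less RNA per cell cannot be told apart.

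**Figure D1:**
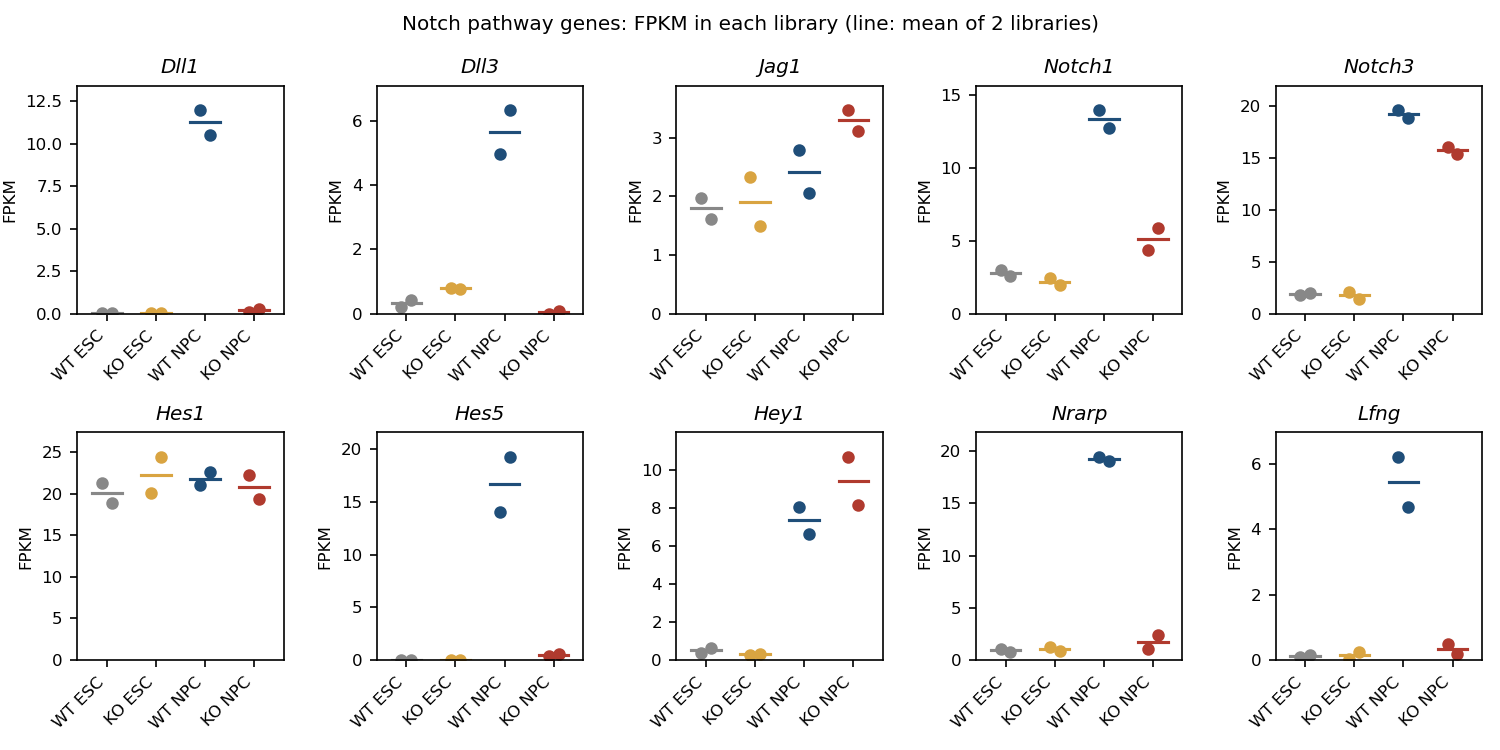
FPKM of the 10 genes (vertical axis, linear, a separate scale for each gene) in the 4 groups (horizontal axis), with 1 point per library and a line at the mean of 2 libraries. Dll1, Dll3, Hes5, Nrarp and Lfng were high in wild-type NPC and low in the other 3 groups, while Hes1 stayed between 18.9 and 24.4 throughout.

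Dll1, on chromosome 17 from 15504318 to 15512787 (mm9), encodes the Delta ligand that neuronal precursors present to their neighbours. Its FPKM was 12.0 and 10.5 in wild-type NPC and 0.0801 and 0.275 in knockout NPC. The ESC libraries stood at 0.0331 and 0.0312 in wild type and 0.0288 and 0.0270 in knockout, 1 fragment in each. The wild-type NPC libraries were thus far above the other 6. Dll1 fell by 3.38 ± 0.13 in knockout NPC (limma adjusted p = 1.97e-05), and its mean of 0.177 ± 0.138 there (SD, n = 2) rested on 3 and 11 fragments. A smaller pseudocount of 0.1 made this change -5.45.

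Dll3, on chromosome 7 from 29078574 to 29086804, encodes a divergent Delta protein that stays largely inside the cell and does not activate receptors on other cells. Its FPKM was 4.96 and 6.32 in wild-type NPC, and in knockout NPC it was listed at 0 and at 0.0822, the latter from 2 fragments. The change was -2.67 ± 0.14 (limma adjusted p = 4.32e-05), and -5.40 with a pseudocount of 0.1. In ESC the libraries stood at 0.218 and 0.410 in wild type and 0.807 and 0.755 in knockout, so the knockout ESC libraries lay above the wild-type ones. That difference of 0.44 ± 0.14 had an unadjusted p of 0.0184 and did not pass after adjustment (limma adjusted p = 0.297). Dll3 was the one ligand gene of the 3 whose level in knockout NPC lay below that in knockout ESC.

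Jag1, on chromosome 2 from 136907187 to 136942256, encodes a Jagged ligand. Its FPKM was 2.78 and 2.05 in wild-type NPC and 3.46 and 3.12 in knockout NPC. Both knockout libraries were above both wild-type ones, by 0.34 ± 0.18, which did not pass (limma adjusted p = 0.223, 95% interval -0.09 to 0.77). In ESC the levels overlapped, at 1.98 and 1.62 in wild type and 2.32 and 1.497 in knockout. In wild-type NPC the order of the 3 ligand genes per length was Dll1 at 11.3 ± 1.01, Dll3 at 5.64 ± 0.960 and Jag1 at 2.42 ± 0.516 FPKM (SD, n = 2), with no overlap between libraries of neighbouring genes. In knockout NPC the order was Jag1 at 3.29 ± 0.243, Dll1 at 0.177 ± 0.138 and Dll3 at 0.0411 ± 0.0581, and the lower Dll1 library and the higher Dll3 library were almost equal.

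Lfng, on chromosome 5 from 141083295 to 141091499, encodes the fringe enzyme known for its role in the segmentation clock and in neural progenitors. Its FPKM was 6.22 and 4.69 in wild-type NPC and 0.496 and 0.194 in knockout NPC, a 15.8-fold lower mean. Without the first knockout NPC library the mean was 28.2-fold lower, and without the second 11.0-fold. The ESC libraries stood at 0.103 and 0.145 in wild type and 0.0447 and 0.251 in knockout, on 1 to 6 fragments each. Wild-type NPC was again the single group with appreciable RNA. Lfng fell by 2.26 ± 0.18 in knockout NPC (limma adjusted p = 1.70e-04), and the change was -3.72 with a pseudocount of 0.1.

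Notch1, on chromosome 2 from 26313422 to 26359342, encodes the receptor most studied in neural progenitors. Its FPKM was 13.97 and 12.8 in wild-type NPC and 4.39 and 5.90 in knockout NPC, and these values rested on about 469 fragments or more each. The ESC libraries were at 3.02 and 2.60 in wild type and 2.43 and 1.95 in knockout. Knockout NPC therefore stood between ESC and wild-type NPC, with no overlap on either side. Notch1 fell by 1.23 ± 0.16 in knockout NPC (limma adjusted p = 0.00150), a 2.60-fold lower mean.

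Notch3, on chromosome 17 from 32257838 to 32303797, encodes a receptor that is expressed in neural progenitors and in the mural cells of vessels. Its FPKM was 19.6 and 18.8 in wild-type NPC and 16.0 and 15.4 in knockout NPC. The ESC libraries stood at 1.75 and 1.94 in wild type and 2.09 and 1.44 in knockout. Both knockout NPC libraries were below both wild-type ones, and the change of -0.27 ± 0.13 did not pass (limma adjusted p = 0.177, 95% interval -0.59 to 0.04). The whole interval of the Notch1 change, -1.61 to -0.86, lay below that of Notch3. Per length, Notch3 was the higher of these receptor genes in both NPC groups, and in wild-type ESC Notch1 was the higher one.

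Hes5, on chromosome 4 from 154335032 to 154336480, encodes a HES repressor of neural progenitors that depends on Notch signals. Its FPKM was 14.1 and 19.3 in wild-type NPC and 0.402 and 0.527 in knockout NPC, where it rested on 5 and 7 fragments. It was listed at 0 in all 4 ESC libraries. Wild-type NPC stood apart from every other group. Hes5 fell by 3.58 ± 0.16 in knockout NPC (limma adjusted p = 2.05e-05), and its mean was 35.9-fold lower.

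Nrarp, on chromosome 2 from 25036278 to 25038852, encodes a small ankyrin-repeat protein that is induced by Notch and dampens the pathway. Its FPKM was 19.5 and 19.1 in wild-type NPC and 1.05 and 2.41 in knockout NPC. The ESC libraries lay at 1.04 and 0.805 in wild type and 1.22 and 0.844 in knockout. The second knockout NPC library was above all ESC libraries, and the first was within their range. Nrarp fell by 2.94 ± 0.24 in knockout NPC (limma adjusted p = 1.94e-04), an 11.1-fold lower mean. With the first knockout NPC library alone the mean was 18.3-fold lower, and with the second alone 7.99-fold.

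Hey1, on chromosome 3 from 8663359 to 8667038, encodes a HEY repressor known from the vascular endothelium and the neural tube. Its FPKM was 8.03 and 6.63 in wild-type NPC and 10.7 and 8.13 in knockout NPC. Both knockout libraries lay above the wild-type ones, by 0.31 ± 0.17, which did not pass (limma adjusted p = 0.224, 95% interval -0.09 to 0.72). The ESC libraries were low in both genotypes, at 0.373 and 0.653 in wild type and 0.279 and 0.304 in knockout. The intervals of the Hey1 and Hes5 changes in NPC were far apart, at -0.09 to 0.72 and -3.95 to -3.21.

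Hes1, on chromosome 16 from 30065443 to 30067882, encodes a HES repressor that is also expressed in ESC and answers to other signals besides Notch. Its FPKM was 21.2 and 18.9 in the wild-type ESC libraries, 20.1 and 24.4 in the knockout ones, 21.0 and 22.6 in wild-type NPC, and 22.2 and 19.4 in knockout NPC. All 4 groups overlapped, and no order of the groups could be read. The knockout change in NPC was -0.07 ± 0.12 (limma adjusted p = 0.733), and its 95% interval of -0.35 to 0.22 excluded changes as large as those of Hes5 and Nrarp.

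**Figure D2:**
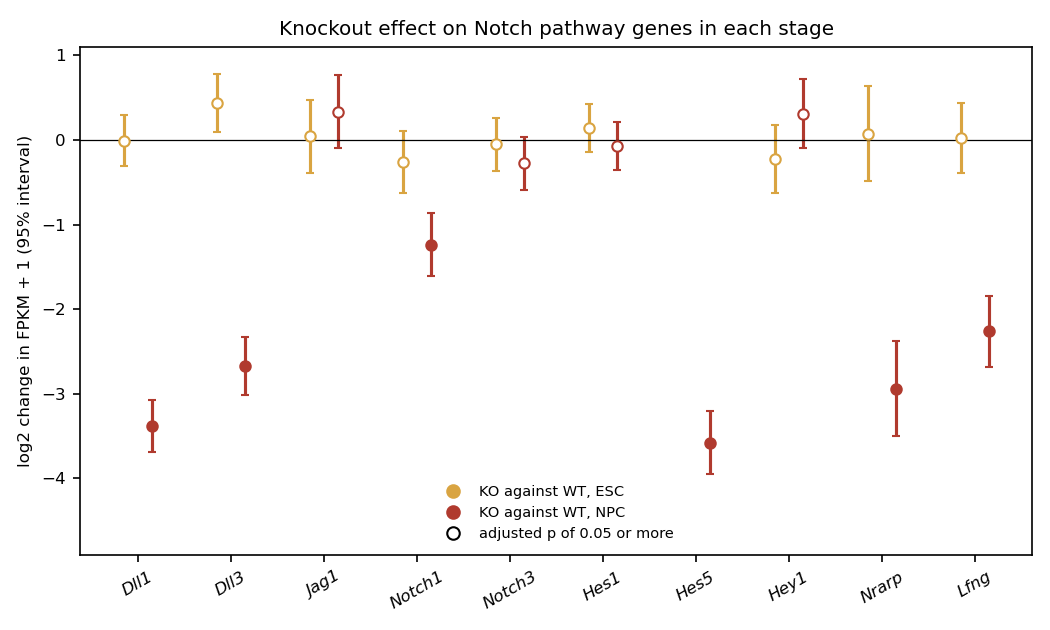
Change of log2(FPKM + 1) between knockout and wild type (vertical axis) for the 10 genes (horizontal axis) in ESC and in NPC, with 95% intervals from limma over 8 libraries. Filled points passed at an adjusted p under 0.05: 6 genes in NPC, from -1.23 for Notch1 to -3.58 for Hes5, and none in ESC, where Hes5 was listed at 0 in every library and is not drawn.

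The second comparison asked the same of stem cells. At the same threshold 0 of the 10 genes passed in knockout ESC against wild-type ESC with limma, and 0.248% of all tested genes did. At an unadjusted p under 0.05 the count was 1, Dll3, against 12.7% of all tested genes. The median change was 0.01 over the 10 genes and -0.01 over all tested genes. Dll1, Dll3, Hes5, Hey1 and Lfng were under an FPKM of 1 in every ESC library and rested there on 17 fragments or fewer. Notch1 stood at -0.26 ± 0.16 and Nrarp at 0.08 ± 0.24, with 95% intervals of -0.63 to 0.11 and -0.48 to 0.64.

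The knockout effect differed between the stages for the same 6 genes. The test of the difference, the effect in NPC minus that in ESC, was lower for Dll1, Dll3, Notch1, Hes5, Nrarp and Lfng and higher for 0 of the 10, against 8.39% of all tested genes lower and 8.41% higher. For Dll1, Dll3, Hes5 and Lfng, which entered the test through wild-type NPC alone, the filter favours a negative difference. For Dll1, Hes5 and Nrarp the differences were -3.38 ± 0.18, -3.58 ± 0.22 and -3.01 ± 0.33 (limma adjusted p = 2.24e-04, 2.38e-04 and 0.00172). For Notch1 the difference was smaller, at -0.98 ± 0.22 (limma adjusted p = 0.0261). The Dll1, Dll3 and Lfng differences became -5.40, -6.53 and -3.73 with a pseudocount of 0.1. The Notch1 call was lost with a pseudocount of 0.1 (adjusted p = 0.0596) and when either wild-type ESC library, either wild-type NPC library, the first knockout ESC library or the first knockout NPC library was left out, with adjusted p of 0.0259 to 0.0815 over the 8 libraries left out in turn. Hey1 had a difference in the opposite direction, 0.54 ± 0.24, which did not pass (limma adjusted p = 0.181, 95% interval -0.03 to 1.11).

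Differentiation of wild-type cells raised 8 of the 10 genes and lowered 0, against 41.6% of all tested genes higher and 31.1% lower. The median change from wild-type ESC to wild-type NPC was 2.49 over the 10 genes and 0.15 over all tested genes, again with 4 genes that entered the test through wild-type NPC. Hes5 rose from a level listed at 0 to a mean FPKM of 16.7 ± 3.69 (SD, n = 2), and Nrarp rose 20.9-fold to 19.3 ± 0.258. Among the receptor genes, Notch3 rose 10.4-fold to 19.2 ± 0.539 and Notch1 4.76-fold to 13.4 ± 0.856. Hey1 rose by 2.46 ± 0.17, Lfng by 2.51 ± 0.18, Dll1 by 3.57 ± 0.13 and Dll3 by 2.33 ± 0.14. With a pseudocount of 0.1 the rises of Lfng, Dll1 and Dll3 were 4.63, 6.42 and 3.82, and that of Hes5 was 7.37 in place of 4.13. Jag1 stood at 0.28 ± 0.18 and Hes1 at 0.12 ± 0.12 (limma adjusted p = 0.196 and 0.405).

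In the knockout line the same 8 genes divided. Notch3 rose by 2.60 ± 0.13 and Hey1 by 2.998 ± 0.17. Their rises in wild type were 2.83 ± 0.13 and 2.46 ± 0.17, and the difference between genotypes did not pass for either gene (limma adjusted p = 0.469 and 0.181). Notch1 rose by 0.94 ± 0.16 (limma adjusted p = 0.00127). Dll1, Nrarp and Lfng did not pass, at 0.19 ± 0.13, 0.39 ± 0.24 and 0.23 ± 0.18 (limma adjusted p = 0.221, 0.180 and 0.287), and Dll3 fell by 0.78 ± 0.14 (limma adjusted p = 0.00221). In all, 5 of the 10 genes were higher and 1 was lower in knockout NPC than in knockout ESC, against 41.6% and 28.8% of all tested genes. The other calls among the 5 were Hes5 at 0.55 ± 0.16 and Jag1 at 0.57 ± 0.18 (limma adjusted p = 0.0164 and 0.0244).

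Some of these calls depended on single libraries or on the scaling. Jag1 lost its call in the knockout line without the second knockout ESC library (0.37, adjusted p = 0.142) or without the first or the second knockout NPC library (adjusted p = 0.103 and 0.0589), and also with median-ratio scaling (0.44) and quantile normalization (0.10). Hes5 lost its call without either knockout ESC library or without the second knockout NPC library, with adjusted p of 0.0622 to 0.0766, and with quantile normalization (adjusted p = 0.0643). Nrarp gained one without the first knockout NPC library, at 0.76 (adjusted p = 0.0109). Dll1 gained one with a pseudocount of 0.1, at 1.02 (adjusted p = 0.0492). That pseudocount also made the Hes5 rise 2.49 (adjusted p = 2.39e-04), the Dll3 fall -2.71 and the Hey1 rise 4.59. Quantile normalization turned the uncalled values of Dll1, Nrarp and Lfng to -0.02, -0.08 and -0.11.

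**Figure D3:**
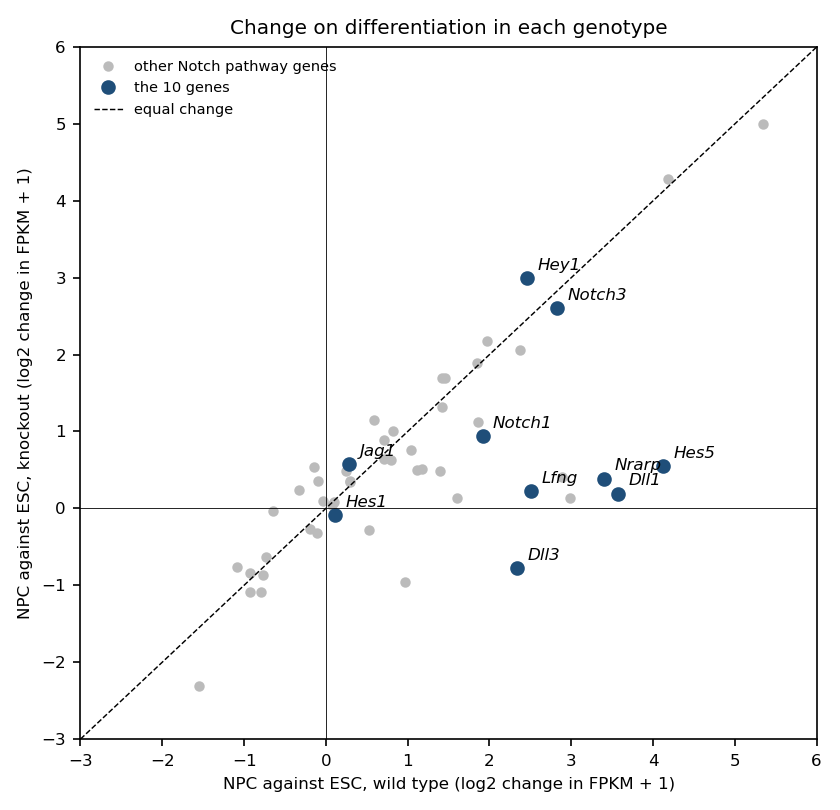
Change of log2(FPKM + 1) from ESC to NPC in wild type (horizontal axis) and in knockout (vertical axis), 1 point per gene, for the 10 genes and for 42 other Notch pathway genes that passed the filter on low values. Notch3 and Hey1 lie near the dashed line of equal change, and Dll1, Dll3, Hes5, Nrarp and Lfng lie far below it.

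The remaining pathway was followed in 49 further genes, grouped by role, of which 42 passed the filter on low values. In knockout NPC 2 of the 42 were higher and 11 were lower, against 14.7% and 12.7% of all tested genes, and their median change of 0.03 was near the 0.05 of all tested genes. Of the 11, Dll4, Dner and Hes3 entered the test through wild-type NPC alone, so the filter bears on this count as well. Without the first knockout NPC library the count was 8, all of them lower. Of the 42, 4 were called lower by at least 1 on the log2 scale, against 5.45% of all tested genes: Dner, Mfng, Hes3 and Hes6. The genes named below with smaller changes were picked out after their values were seen.

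Among the ligand genes, Dner, which encodes a transmembrane protein of neurons described as a noncanonical ligand, fell from a mean FPKM of 7.14 ± 0.617 to 0.202 ± 0.179 (SD, n = 2), a change of -2.77 ± 0.14 (limma adjusted p = 3.46e-05). Dll4 and Jag2 fell less, by 0.62 ± 0.10 and 0.83 ± 0.16 (limma adjusted p = 0.00447 and 0.00961). Jag1 and Dlk1 did not pass, and 5 of the 7 tested ligand genes were lower, against 12.7% of all tested genes. Of these 5, Dll1, Dll3, Dll4 and Dner reached an FPKM of 1 in wild-type NPC alone, so their count supports nothing beyond the single values. Of the 4 receptor genes Notch1 alone was called, as lower, against 12.7% of all tested genes lower and 14.7% higher. Notch2, at 9.18 ± 0.598 in wild-type and 11.8 ± 0.350 in knockout NPC, had a change of 0.33 ± 0.13 (limma adjusted p = 0.108).

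Mfng, a second fringe gene, fell from 4.67 ± 0.533 to 0.565 ± 0.171 FPKM (-1.86 ± 0.13, limma adjusted p = 1.15e-04). In wild-type cells it rose on differentiation by 0.96 ± 0.13, and in knockout cells it fell by 0.96 ± 0.13. Rfng, the third fringe gene, stood at 0.14 ± 0.11 in knockout NPC (limma adjusted p = 0.401). Mib1, whose ubiquitin ligase helps ligands to signal, fell by 0.59 ± 0.17 (limma adjusted p = 0.0423).

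Receptor cleavage and the nuclear complex come after ligand binding in the pathway. Of 8 tested genes for receptor cleavage, which encode ADAM proteases and subunits of gamma-secretase, 0 passed in knockout NPC with limma. Of all tested genes 12.7% were lower and 14.7% higher, and 8 genes are too few to set this list apart from them. At an unadjusted p under 0.05 the count for receptor cleavage was 3. Rbpj FPKM was 27.8 ± 0.311 in wild-type NPC and 24.9 ± 1.63 in knockout NPC, a change of -0.15 ± 0.07 that did not pass (limma adjusted p = 0.163). In both genotypes Rbpj fell on differentiation, by 0.92 ± 0.07 in wild type and 1.09 ± 0.07 in knockout. Maml1, a Mastermind coactivator gene, and Cir1, a corepressor gene, were the 2 called higher in knockout NPC, by 0.38 ± 0.10 and 0.57 ± 0.17 (limma adjusted p = 0.0280 and 0.0429). These calls depended on the processing. Among the 42 genes 0 were called higher when only the NPC libraries were fitted, and 1 with a pseudocount of 0.1 or with median-ratio scaling.

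Within the HES and HEY family 6 of 10 genes were tested, and 4 fell in knockout NPC, against 12.7% of all tested genes lower. Hes3 and Hes5 were tested through wild-type NPC alone. Hes3, a progenitor repressor, fell from 2.05 ± 0.445 to 0.103 ± 0.00479 FPKM (-1.46 ± 0.13). Hes6, whose product counteracts HES1 and favours neuronal differentiation, fell from 36.7 ± 5.19 to 8.78 ± 0.370 (-1.94 ± 0.22). Heyl fell by 0.74 ± 0.11 (limma adjusted p = 0.00336). Hes1 and Hey1 were the tested members that did not pass. Among inhibitors and turnover genes, Numbl, Dtx1 and Dtx4 fell along with Nrarp, by 0.86 ± 0.11, 0.73 ± 0.12 and 0.41 ± 0.11. Dtx1 was under an FPKM of 1 in every NPC library, with means of 0.734 in wild type and 0.0482 in knockout. The other 6 of the 10 genes on this list were not called. The 4 lower genes of the 10 stand against 12.7% of all tested genes lower.

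**Figure D4:**
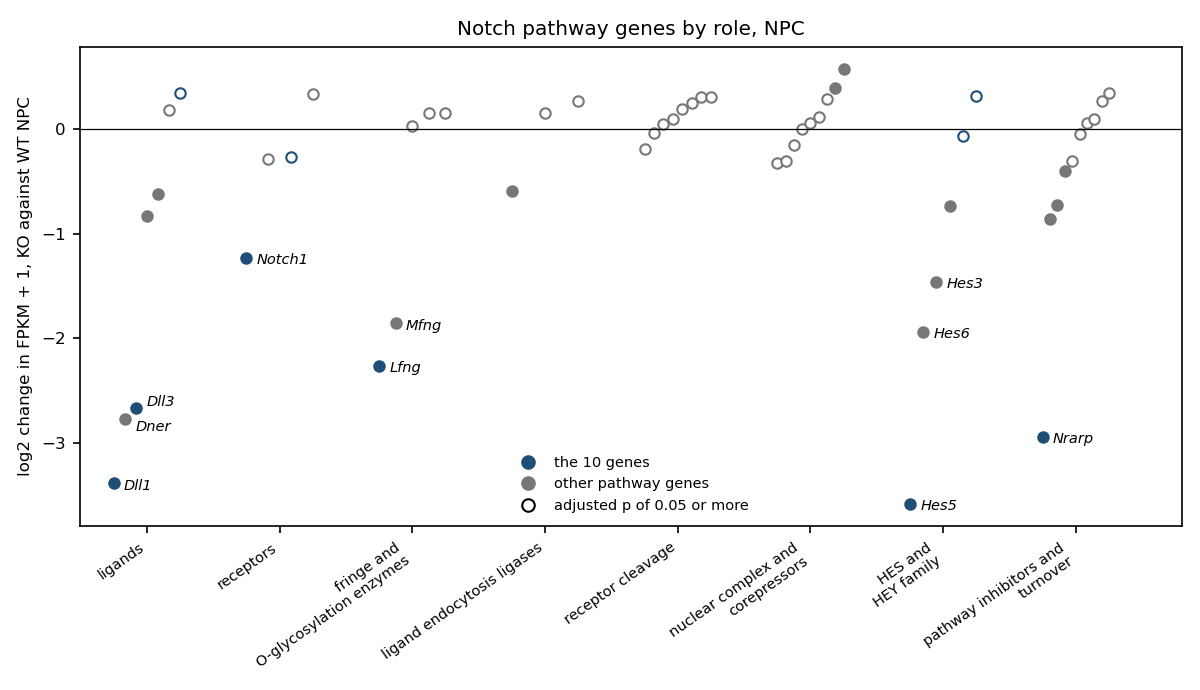
Change of log2(FPKM + 1) in knockout against wild-type NPC (vertical axis) for the tested Notch pathway genes, grouped by role (horizontal axis), 1 point per gene, with filled points at an adjusted p under 0.05. The genes with a change of at least 1 are named, all of them below 0, and those of receptor cleavage all have open points near 0.

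In stem cells 0 of these 42 genes passed with limma, against 0.248% of all tested genes, and 5 had an unadjusted p under 0.05, against 12.7%, so neither count stood above the background. On differentiation 26 rose and 9 fell in wild type, against 41.6% and 31.1% of all tested genes. In the knockout line 23 rose and 9 fell, against 41.6% and 28.8%. Dtx4, a Deltex gene, and Dlk1, a noncanonical ligand gene, rose in both genotypes, by 5.35 ± 0.11 and 4.18 ± 0.13 in wild type and 5.00 ± 0.11 and 4.29 ± 0.13 in knockout. The difference of knockout effects was called for 10 of the 42, 8 of them lower, against 8.39% of all tested genes lower and 8.41% higher. That count fell to 5 or 6 when certain single libraries were left out.

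Proneural factors, which switch on Delta ligand genes in neuronal precursors, were listed alongside. Neurog1, Neurog2, Atoh1, Neurod1 and Neurod4 fell in knockout NPC, with changes from -2.12 ± 0.14 for Atoh1 to -3.19 ± 0.20 for Neurog1, and with Neurog1 at 17.2 ± 1.27 FPKM in wild-type and 1.01 ± 0.436 in knockout NPC. Of all tested genes 12.7% were lower, and 5.45% were lower by at least 1. Neurog2, Atoh1 and Neurod4 were tested through wild-type NPC alone. Neurog3 and Olig2, on the same list, did not pass the filter on low values and were not tested. Their mean FPKM in wild-type and knockout NPC was 0.386 and 0.537 for Neurog3, and 0.398 and 0 for Olig2.

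Markers of several cell types were listed as well. Their counts are to be read against 12.7% of all tested genes lower and 14.7% higher in knockout NPC. The 10 neuron markers summed to 385 to 406 FPKM in wild-type NPC and to 16.1 to 21.8 in knockout NPC, and all 10 fell, of which Rbfox3 was tested through wild-type NPC alone. The ESC libraries summed to 123 to 127 for the same list, and Stmn2 was higher there, at 78.1 ± 0.421 FPKM in wild-type ESC against 52.3 ± 9.69 in wild-type NPC. The 10 neural progenitor markers summed to 689 to 704 and to 340 to 363, and 8 of them fell, while Nes and Cdh2 did not pass. Vim was the largest term of both sums, at a mean FPKM of 388 in wild-type and 273 in knockout NPC. The median log2 change of the 10 markers was -2.11. For the same list the wild-type ESC libraries summed to 226 to 229 and the knockout ESC libraries to 214 to 244. Sox2 was higher in ESC, at 88.1 ± 6.81 FPKM in wild-type ESC against 30.2 ± 0.311 in wild-type NPC. Endothelial markers were higher in knockout NPC: the 8 summed to 39.6 to 40.8 against 15.5 to 16.0, and 6 rose, while Emcn and Esam did not pass. The ESC libraries summed to 24.8 to 26.1 for the same list. Most of that was Pecam1, at a mean FPKM of 22.8 in wild-type and 23.9 in knockout ESC. Markers of presomitic mesoderm, the tissue where Lfng takes part in the segmentation clock, summed to 11.3 to 12.8 in knockout and 2.39 to 2.73 in wild-type NPC. Rspo3 alone carried that difference, at 12.2 and 9.92 in knockout and 1.17 and 1.75 in wild-type NPC. The other 7 summed to 0.626 and 1.41 in knockout and 1.22 and 0.979 in wild-type NPC. Rspo3 was the called one of the 2 tested genes of that list, while Mesp1 was at 0 in both NPC groups, Msgn1 was at 0 in wild-type NPC, and T and Ripply2 were at 0 in knockout NPC. Of the 6 tested mural markers 0 passed with limma and 1 had an unadjusted p under 0.05, with sums of 35.3 to 42.1 and 37.1 to 52.1. Fibroblast markers summed to 92.5 to 104 in wild-type and 73.2 to 84.6 in knockout NPC, with 5 lower and 1 higher of 8, of which Lum and Dcn were tested through wild-type NPC alone. The part of these cell types in the results for the 10 genes was not tested.

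Across the 8 libraries the 10 genes followed a few distinct profiles. Each profile was the log2(FPKM + 1) value minus the gene's mean, and 2 genes were compared by the root mean square difference of their profiles, a description with no test over libraries that the genes share. The smallest difference was 0.22, between Dll1 and Nrarp, followed by 0.26 for Notch3 and Hey1, 0.28 for Dll1 and Hes5, and 0.32 for Jag1 and Hes1. Hes1 and Hes5, targets of one family, had the largest of the 45 differences, at 1.71. Notch1 stood nearer to Lfng (0.44) than to Notch3 (0.74).

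**Figure D5:**
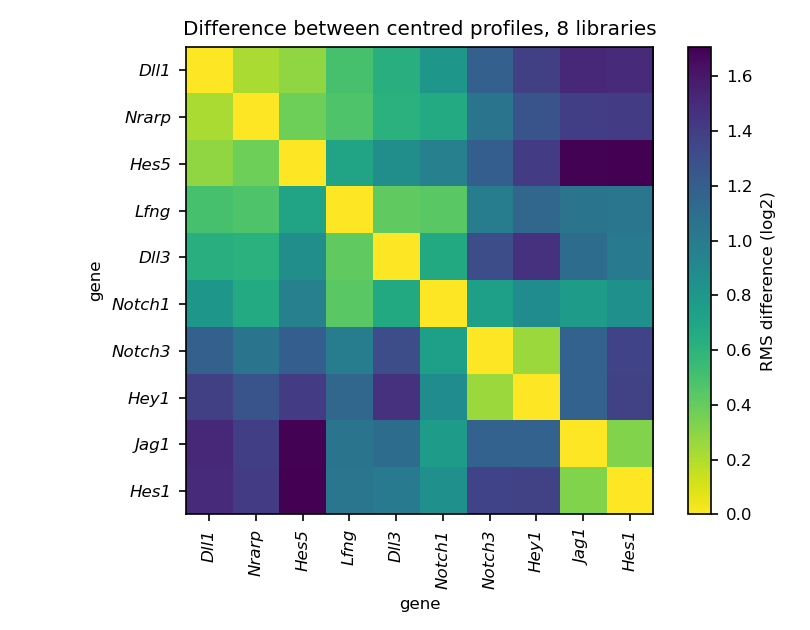
Root mean square difference (colour, log2 scale) between the centred log2(FPKM + 1) profiles of each pair of the 10 genes (both axes) over 8 libraries. Yellow and light green blocks of small differences join Dll1, Nrarp and Hes5, then Notch3 and Hey1, then Jag1 and Hes1.

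The genes nearest in profile were then read from 9556 genes with a mean FPKM of at least 5 in their highest group. Dll1 lay nearest to Cntn2, Rfx4 and Nxph4, with differences of 0.0909 to 0.136. For Dll3 they were Npdc1, Ap3b2 and Rnd2 (0.174 to 0.210), for Lfng Ildr2, Jakmip2 and Neurod1 (0.119 to 0.175), and for Nrarp Prdm8, Neurod4 and Btbd17 (0.130 to 0.153). Hes5 lay nearest to Nhlh1, Scrt2 and 2610100L16Rik (0.154 to 0.179), which had mean FPKM between 13.4 and 21.1 in wild-type NPC and between 0.218 and 0.672 in knockout NPC. Neurod1 and Neurod4 recur from the proneural genes above. For Notch1 the nearest were Skida1, Chd7 and Fzd8 (0.0781 to 0.150), which like Notch1 kept an intermediate level in knockout NPC, for example 15.3 and 6.41 FPKM for Chd7 in wild-type and knockout NPC. For Notch3 they were Zfp521, Eif4g3 and 1110051M20Rik (0.111 to 0.112), and for Hey1 Ube2h, Phf2 and Maf (0.127 to 0.133). Jag1 lay nearest to Zfp937, Gosr1 and Csgalnact2 (0.0736 to 0.0938) and Hes1 to Rps15a-ps6, Mrpl13 and Cbx6 (0.0626 to 0.0652), and for genes that change little such nearness says little.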

How the data were processed

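Poly(A) RNA was sequenced from directional libraries, per the labels' protocols. The submitters' processing notes name TopHat2 2.1.1, Cufflinks 2.2.1 and mm9, and the deposited tables hold FPKM made by the authors, per the file headers in the Cufflinks format. Whether fragments were counted by strand is not given in the sources used here. Each table had 24854 entries for 24318 symbols. The 821 entries of 285 repeated symbols were summed, and 12 symbols with a failed estimate were left out, none of them among the 10 genes.

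The test used limma 3.58.1 (R 4.3.3) on log2(FPKM + 1) for each gene whose FPKM reached 1 in 2 or more libraries. It fitted 4 group means over all 8 libraries with a trended variance, which left 4 degrees of freedom. Tests were two-sided with Benjamini-Hochberg adjustment, and the code was tested on simulated data. Fragment numbers were derived from the upper bound of each deposited 95% interval, which lies 2 square roots of the number above the estimate. Below 5 fragments, 66.9% to 71.6% of these were within 0.05 of a whole number (10% by chance). Start positions in the tables count from 0 and were converted.

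The 10 genes, the lists and the naming rule were chosen with earlier results of these data known. The rule named the 10 genes, further pathway or proneural genes that passed a knockout contrast or the difference with a change of at least 1, Rbpj, Dcaf7 and the 3 nearest profiles per gene. Predicted, microRNA and small nucleolar RNA genes were left out of the nearest profiles. Alternatives were another pseudocount, filters, scalings, fits, a replicate block and leaving out each library. Some genes that met this rule are not reported here.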

Additional observations from a re-analysis of the deposited data

Results flagged for a closer look

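The knockout effect on a gene was set apart where the test of its difference between the stages, the effect in NPC minus that in ESC on the log2(FPKM + 1) scale, passed at a limma adjusted p under 0.05. Of the 10 genes this held for Dll1 (-3.38), Dll3 (-3.11), Notch1 (-0.98), Hes5 (-3.58), Nrarp (-3.01) and Lfng (-2.29). Of the further genes named by rule it held for Dner (-2.85), Mfng (-1.92), Hes3 (-1.46) and Hes6 (-2.49), and for the proneural genes Neurog1 (-2.96), Neurog2 (-2.66), Atoh1 (-2.31), Neurod1 (-1.91) and Neurod4 (-2.79). Dll1, Dll3, Hes5, Lfng, Dner, Hes3, Neurog2, Atoh1 and Neurod4 entered the test through wild-type NPC alone. For these genes the filter on low values favours a negative difference. The Notch1 call was lost with a pseudocount of 0.1 and without certain single libraries. Atoh1 was listed at 0 in both knockout NPC libraries. Hes3 and Hes5 were listed at 0 in all 4 ESC libraries, so their differences equal their changes in NPC. With 2 libraries per group, single libraries could not be examined for outlying values.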

How the results depend on the processing

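Among 909 recomputed changes of the 10 genes and Dcaf7, 890 stayed on their side of the threshold, 17 lost a call, 2 gained one and 0 called values reversed, while 19 uncalled values changed sign. Another 26 were not tested, under the higher filter or because fits of only the compared groups give no difference between the stages. The number of the 10 genes called in knockout NPC stayed at 6, except with an FPKM minimum of 5, which left 7 genes tested and 4 called. The Dcaf7 call in ESC was lost when only the ESC libraries were fitted (adjusted p = 0.27). For the 42 other pathway genes, the 13 calls in knockout NPC became 7 with an FPKM minimum of 5 and 8 to 12 over the libraries left out in turn, with 8 without the first knockout NPC library. The 35 calls on wild-type differentiation became 22 with that minimum, which left 28 of the 42 genes tested. The 10 calls of the difference became 6 with a pseudocount of 0.1, 5 with an FPKM minimum of 5, 6 with quantile normalization, and 5 to 9 over the libraries left out. The libraries that gave 5 or 6 were either wild-type ESC, either knockout ESC or either knockout NPC library. Where a lone library stayed in a group, it was assumed to vary like the other groups. Median-ratio scaling lowered the median change of all genes on differentiation from 0.15 to 0.04 in wild type and from 0.17 to 0.03 in knockout.

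The labels number the libraries of each group 1 and 2 without saying what a number shares, and the differences between libraries 1 and 2 correlated across genes at -0.054 to 0.179 between groups. With a replicate block, the calls among the 10 genes were 6 for the knockout in NPC, 0 in ESC, 8 and 6 for differentiation in wild type and knockout, and 6 for the difference. Among the 42 other pathway genes they were 12, 0, 34, 32 and 8. Depth limits Dll1, Dll3, Hes5 and Lfng outside wild-type NPC, where most values rested on few fragments.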
